A study of Mus musculus with 6 samples.

Results

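Secreted proteins that meet microbes at the gingival surface were examined here at the transcript level: the serum amyloid A genes Saa1, Saa2 and Saa3, the whey-acidic-protein genes Slpi and Wfdc21, the lectin gene Reg3g and the beta-defensin genes Defb1, Defb3, Defb4 and Defb14. These 10 genes were chosen by name, with earlier results of these data known, from 48709 genes in the count table, and all 10 were found. Counts of members set beside shares of all genes are therefore descriptive. The tissue was gingiva from C57BL/6 mice aged 12 weeks. RNA sequencing gave 3 libraries of plasminogen-deficient mice (Plg KO) and 3 of wild-type littermates (Plg WT). Plasminogen is the precursor of plasmin, the protease that dissolves fibrin, and the series asked what its loss does to the oral mucosal transcriptome. Nothing in the labels says how the Plg allele was made or whether each library is a separate animal, so the p-values reflect variation among these 6 libraries and not necessarily among animals.

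Total gene counts were between 26183389 and 36429150 per library, so that the upper limit for a gene with 0 counts, taken as 3 counts, was 0.0824 to 0.115 CPM (counts scaled to library size) per library. That limit covers counting error only. Plg had 2 counts in each group and gives no check of the genotype, since the liver makes most plasminogen. Keratinocyte transcripts marked the tissue as squamous mucosa: 8 basal markers summed to 16229 to 18977 CPM in Plg KO and 18051 to 19796 CPM in Plg WT. Salivary gland transcripts were also present, with summed gland markers of 8522 to 10704 CPM in Plg KO and of 11344, 3214 and 1879 CPM in Plg WT 1, 2 and 3. Plg KO 1 and Plg WT 3 were the libraries with Y-linked Ddx3y (1838 and 1475 counts) and little Xist (2 and 10 counts).

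Serum amyloid A proteins are the classic acute-phase reactants. Saa1 and Saa2 are released mainly by the liver onto lipoproteins, whereas mouse Saa3 is made locally by macrophages, fat cells and epithelia. Their genes respond to interleukin-1, interleukin-6 and tumour necrosis factor through NF-kappaB, C/EBP and STAT3 factors. Slpi inhibits neutrophil elastase and cathepsin G, Reg3g binds peptidoglycan of Gram-positive bacteria, and beta-defensins are cationic peptides that disrupt microbial membranes. At squamous surfaces some beta-defensins are made constantly and others on inflammatory stimulation.

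The sequences before the starts of 4 of the genes are shown, Saa3 and Reg3g because they varied most between libraries. Saa1 and Saa2 are shown because they are near copies of each other. RefSeq (GRCm38.p6) supplied a promoter for 6 of the 10 genes. Each line gives the 250 bases before the annotated start, 5′ to 3′ on the gene's strand. Capitals mark matches on either strand to TTNNGNAA (C/EBP type), TTCNNNGAA (STAT type) or an NF-kappaB type pattern of 10 bases that opens with GGG and closes with CC. A stricter form of the last also has TTT just before the CC.
Saa1: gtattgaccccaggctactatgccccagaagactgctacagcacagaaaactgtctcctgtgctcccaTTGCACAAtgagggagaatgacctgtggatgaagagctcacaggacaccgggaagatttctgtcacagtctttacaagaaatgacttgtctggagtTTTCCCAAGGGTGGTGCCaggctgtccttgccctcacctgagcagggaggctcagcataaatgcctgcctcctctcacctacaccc
Saa2: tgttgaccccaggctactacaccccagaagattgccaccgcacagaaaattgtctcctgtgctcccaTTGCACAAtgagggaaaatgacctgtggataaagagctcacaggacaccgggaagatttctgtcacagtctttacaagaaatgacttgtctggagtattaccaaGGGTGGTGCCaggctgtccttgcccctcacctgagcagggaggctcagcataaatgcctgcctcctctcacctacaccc
Saa3: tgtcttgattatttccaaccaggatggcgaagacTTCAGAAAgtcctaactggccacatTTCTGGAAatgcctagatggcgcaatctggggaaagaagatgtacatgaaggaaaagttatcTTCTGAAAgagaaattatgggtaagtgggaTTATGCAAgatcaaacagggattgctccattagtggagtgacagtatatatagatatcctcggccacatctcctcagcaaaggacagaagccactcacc
Reg3g: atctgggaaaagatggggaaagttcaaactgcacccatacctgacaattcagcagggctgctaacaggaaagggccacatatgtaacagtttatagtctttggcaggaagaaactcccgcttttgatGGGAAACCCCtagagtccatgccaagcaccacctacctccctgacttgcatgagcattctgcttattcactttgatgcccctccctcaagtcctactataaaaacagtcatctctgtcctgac
The window of Saa1 is chr7:46742981-46743230 (minus strand), that of Saa2 chr7:46751583-46751832 (plus strand), that of Saa3 chr7:46715677-46715926 (minus strand) and that of Reg3g chr6:78468875-78469124 (minus strand). For Saa2, Saa3 and Reg3g the RefSeq starts differ from the GENCODE gene positions given with the results. The Saa1 and Saa2 windows were 94.8% identical, and those of Saa1 and Saa3 were 52.2% identical. Saa1, Saa2 and Reg3g each held 1 NF-kappaB type match, and Saa1 held 2 TTNNGNAA matches where Saa2 held 1. Saa3 held 4 TTNNGNAA matches. None of the 6 windows, Slpi and Defb3 included, matched the stricter NF-kappaB form or TTCNNNGAA. Of 32851 mouse promoter windows of this length, 45.8% held the NF-kappaB type pattern, 1.41% its stricter form, 36.8% TTNNGNAA and 7.02% TTCNNNGAA. Every match to the stricter form is also a match to the looser one, and neither presence nor absence of these letters shows binding of a factor.

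In the comparison of Plg KO with Plg WT gingiva, the scarcer members of the set had higher means in Plg KO, while Slpi and Defb4, the most abundant, differed little. Fitted ratios of Plg KO to Plg WT were 23.7 for Saa3, 13.6 for Reg3g, 6.65 for Wfdc21 and 3.11 for Defb3. They were 1.49 for Defb1, 1.23 for Defb14, 1.04 for Defb4 and 0.897 for Slpi. The 4 largest ratios came with wide spread between Plg KO libraries, and 0 of the 8 genes that could be tested was called by edgeR's quasi-likelihood test at an adjusted p under 0.05. Saa1 and Saa2 had too few counts for the filter and are given by their counts.

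That filter keeps genes with enough counts in at least 1 group's number of libraries, so a gene may pass through the group in which it is high. Saa3 (4, 6 and 15 counts in Plg WT 1, 2 and 3) and Wfdc21 (3, 4 and 8) could pass it through Plg KO. This favours a positive sign and higher Plg KO libraries for both, which enter the counts of members below. Over all 17757 genes tested, 0.191% were called higher in Plg KO and 0.0451% lower. At an unadjusted p under 0.05, 5 of the 8 tested members (Saa3, Wfdc21, Reg3g, Defb1 and Defb3) were higher and 0 were lower, beside a background of 4.97% of all tested genes higher and 4.27% lower. DESeq2 called 3 of the 8 higher (Saa3, Wfdc21 and Defb3) and 0 lower, beside a background of 1.54% higher and 0.721% lower. Before adjustment it had 5 of the 8 at a p under 0.05 and higher, against 4.71% of all genes. limma-voom called 0 higher and 0 lower, where it called 0.18% and 0.0507% of all genes, and had 3 of the 8 higher before adjustment, against 5.31%. Every Plg KO library lay above every Plg WT library for 2 members, Wfdc21 and Defb1, and for 7.51% of all tested genes; 0 members and 7.18% of all tested genes had the opposite order. The fitted difference was positive for 7 of the 8 members and for 49.2% of all tested genes. In bulk tissue, fewer cells of a type and less RNA per cell cannot be told apart.

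**Figure D1:**
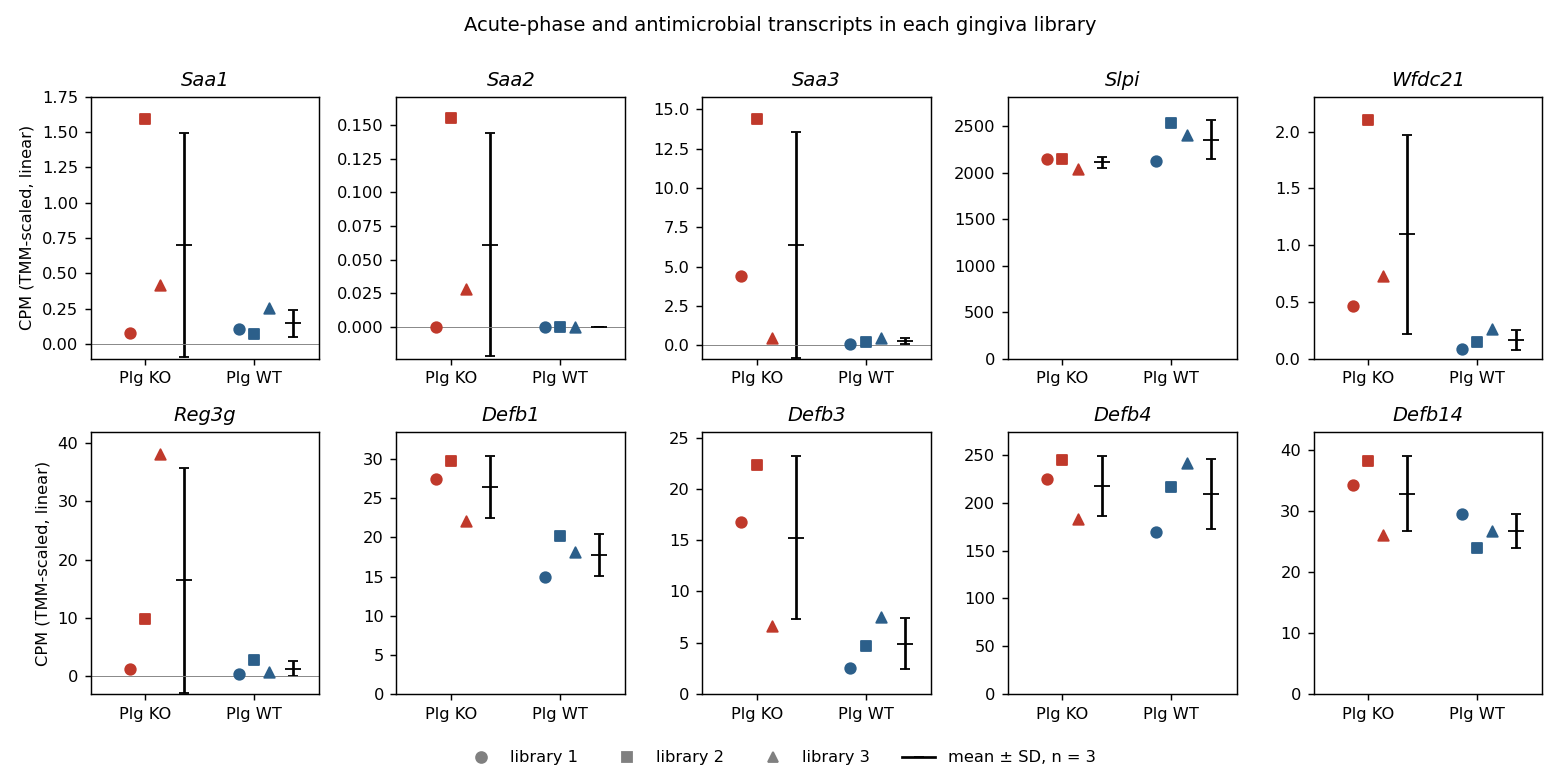
CPM (TMM-scaled, linear axes) of the 10 genes in each library, Plg KO on the left and Plg WT on the right of each panel; marker shapes give the library number and bars the mean ± SD (n = 3). Saa3 is near the Plg WT level in Plg KO 3 and reaches 14.4 CPM in Plg KO 2, whereas Reg3g reaches 38.1 CPM in Plg KO 3.

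**Figure D2:**
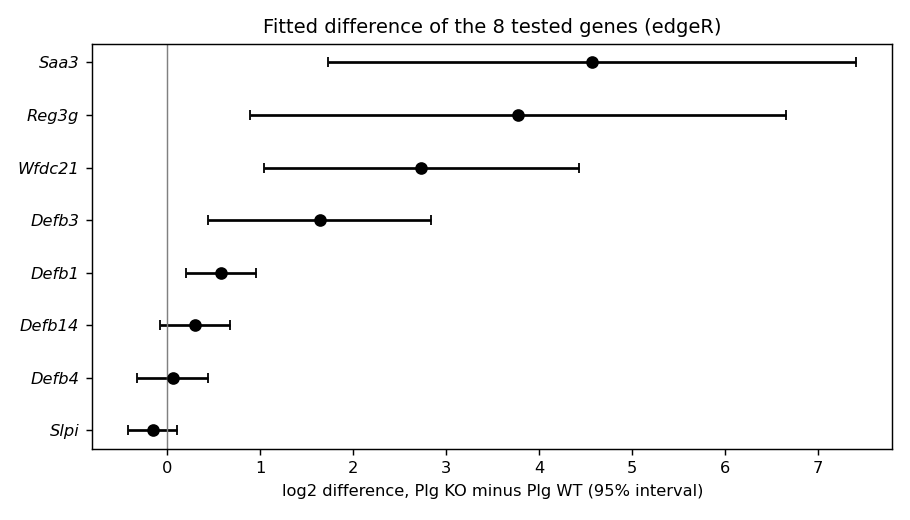
Fitted log2 difference, Plg KO minus Plg WT, of the 8 tested genes with its 95% interval from the edgeR fit; the vertical line is no difference. Intervals of 5 genes lie above 0 before any adjustment for multiple tests, and those of Slpi, Defb4 and Defb14 include 0.

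Saa3 (ENSMUSG00000040026, GRCm38 chromosome 7, 46711998 to 46715700, minus strand) encodes the locally made serum amyloid A. It had 162, 370 and 16 counts in Plg KO 1, 2 and 3, against 4, 6 and 15 counts in Plg WT 1, 2 and 3. The CPM values were 4.37, 14.4 and 0.448 in Plg KO and 0.109, 0.214 and 0.481 in Plg WT. Plg KO 1 and 2 were far above every Plg WT library, and Plg KO 3 lay within the Plg WT range. The log2 difference was 4.57 ± 1.21 (SE; 95% interval 1.73 to 7.41), with an edgeR adjusted p of 0.261. It came to 3.17 without Plg KO 2 and 5.12 without Plg KO 3, neither of which was called.

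The liver-type paralogs had few counts. Saa1 (chromosome 7, 46740497 to 46742980, minus strand) had 3, 41 and 15 counts in Plg KO and 4, 2 and 8 counts in Plg WT. Saa2 (chromosome 7, 46751790 to 46754313, plus strand) had 0, 4 and 1 counts in Plg KO and 0 counts in each Plg WT library, where 3 counts over the group would be 0.0313 CPM. Saa1 was highest in Plg KO 2, as Saa3 was, while in Plg KO 1, where Saa3 lay above Plg WT, Saa1 stayed at 3 counts. With no filter, Saa1 had a log2 difference of 2.18 and an edgeR adjusted p of 0.612 over 31749 genes.

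Reads of these paralogs can be confused, which limits the Saa1 and Saa2 values. The main transcripts of Saa1 and Saa2 were 87.3% identical, and 16.2% of the 37-base windows of Saa1, the length of a read, occurred unchanged in Saa2. Only 3.84% of Saa1 windows occurred in Saa3, and the Defb1, Defb3, Defb4 and Defb14 transcripts shared 0 windows among themselves. Saa3 made up 98.2% of the 165 counts of the 3 Saa genes in Plg KO 1 (95% Wilson interval 94.8 to 99.4%), 89.2% of 415 in Plg KO 2 (85.8 to 91.8%) and 50.0% of 32 in Plg KO 3 (33.6 to 66.4%). The shares in Plg WT were 50.0% of 8 counts, 75% of 8 and 65.2% of 23. These intervals cover counting error only, since reads copied by PCR are not independent molecules. The share was highest in Plg KO 1 and 2, and the few counts in Plg WT leave its shares imprecise. Saa4, the constitutive member of the family, had 0 counts in Plg KO and 1 in Plg WT. Of 12 hepatocyte markers, 10 were under 1 CPM in every library, among them Alb and Serpina1a with 0 counts in both groups. The other two were detected: Ahsg had 8.31, 4.47 and 5.57 CPM in Plg KO and 7.997, 12.8 and 8.23 CPM in Plg WT, and Trf had 1.35, 0.505 and 1.15 CPM in Plg KO and 2.40, 3.71 and 2.95 CPM in Plg WT. Neither was highest in Plg KO 2, where Saa1 and Saa3 were.

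Reg3g (ENSMUSG00000030017, chromosome 6, 78466269 to 78468872, minus strand), the bactericidal lectin best known from the intestine, followed another order of libraries. It had 1.27, 9.87 and 38.1 CPM in Plg KO 1, 2 and 3, against 0.328, 2.71 and 0.673 CPM in Plg WT 1, 2 and 3. Plg KO 3 was highest by far, while Plg KO 1 lay below Plg WT 2, so the groups overlapped. The log2 difference was 3.77 ± 1.23 (95% interval 0.89 to 6.65; edgeR adjusted p = 0.376), and 2.17 without Plg KO 3 and 5.05 without Plg WT 2. Its relatives Reg3a, Reg3b and Reg3d had 0 counts in all 6 libraries, which leaves Reg3g as the 1 detected member of its subfamily.

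The whey-acidic-protein genes Slpi and Wfdc21 stood at opposite ends of the abundance range. Slpi (ENSMUSG00000017002, chromosome 2, 164354070 to 164389095, minus strand) was the 35th most abundant of 17757 tested genes. It had 2151, 2143 and 2042 CPM in Plg KO and 2124, 2530 and 2407 CPM in Plg WT. The groups overlapped through Plg WT 1, and the Plg KO libraries lay close together. The log2 difference was -0.16 ± 0.11 (95% interval -0.42 to 0.11; edgeR adjusted p = 0.742), which limits the ratio of Plg KO to Plg WT to between 0.748 and 1.076. Plg WT 2 and 3, where Slpi was highest, were the libraries with the lowest summed gland markers. The part of gland tissue in the Slpi values was not tested.

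Wfdc21 (ENSMUSG00000051748, chromosome 11, 83746940 to 83752642, plus strand) encodes a small secreted protein with a single whey-acidic-protein type domain. It had 0.459, 2.10 and 0.728 CPM in Plg KO, against 0.0819, 0.143 and 0.256 CPM in Plg WT. All 3 Plg KO libraries exceeded all 3 Plg WT libraries, though the Plg WT level rests on 15 counts and the Plg KO level on 97. The log2 difference was 2.73 ± 0.72 (95% interval 1.04 to 4.43; edgeR adjusted p = 0.261), and 1.88 without Plg KO 2 and 3.25 without Plg WT 3. Among the tested members it had the lowest mean level.

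Of the beta-defensins, Defb3 had the largest fitted difference, with overlapping groups, and only Defb1 had groups that did not overlap. The intervals of Defb4 and Defb14 included 0, and that of Defb14 also included the fitted difference of Defb1. Defb3, Defb4 and Defb14 lie within 1 stretch of chromosome 8, with starts at 19293360, 19198706 and 19194357, and Defb1 lies apart at 21776599 to 21795185. Defb3 (ENSMUSG00000039775), a defensin known in mouse to be induced by infection, had 16.7, 22.4 and 6.64 CPM in Plg KO and 2.57, 4.68 and 7.46 CPM in Plg WT. Plg KO 1 and 2 were above all Plg WT libraries and Plg KO 3 was below Plg WT 3, the same split as for Saa3. The log2 difference was 1.64 ± 0.51 (95% interval 0.44 to 2.83; edgeR adjusted p = 0.353). It was 1.26 without Plg KO 2, 1.32 without Plg WT 1 and 2.08 without Plg WT 3.

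Defb1 (ENSMUSG00000044748), generally regarded as a constitutive epithelial defensin, had 27.5, 29.8 and 22.1 CPM in Plg KO and 14.9, 20.2 and 18.1 CPM in Plg WT. Every Plg KO library lay above every Plg WT library, with a gap of 22.1 to 20.2 CPM between the nearest libraries. Its log2 difference was 0.58 ± 0.16 (95% interval 0.20 to 0.95; edgeR adjusted p = 0.282). Mean levels were 26.5 ± 3.98 CPM in Plg KO and 17.7 ± 2.66 CPM in Plg WT (SD, n = 3 each).

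Defb4 (ENSMUSG00000059230), the most abundant of the 4 defensin transcripts, had 225.7, 245.0 and 183.7 CPM in Plg KO and 169.9, 216.5 and 242.4 CPM in Plg WT. The groups covered nearly the same range. The log2 difference was 0.06 ± 0.16 (95% interval -0.32 to 0.44; edgeR adjusted p = 0.955), and it changed sign without Plg WT 1 (-0.073) or Plg KO 2 (-0.03). Defb14 (ENSMUSG00000046354), the mouse counterpart of human beta-defensin 3, had 34.2, 38.1 and 26.02 CPM in Plg KO and 29.5, 23.9 and 26.6 CPM in Plg WT. Plg KO 1 and 2 were above all Plg WT libraries, but Plg KO 3 lay among them (log2 difference 0.30 ± 0.16; 95% interval -0.08 to 0.67; edgeR adjusted p = 0.640).

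Levels of different genes were compared per length of the main transcript, in CPM per kilobase. In Plg KO, Slpi had 2411 ± 69.6, Defb4 480.5 ± 69.0, Defb14 160.7 ± 30.3 and Defb3 55.5 ± 29.0 CPM per kilobase (SD, n = 3). In Plg WT the same genes had 2687 ± 237.7, 461.7 ± 80.9, 130.7 ± 13.8 and 17.8 ± 8.93 CPM per kilobase. Slpi, Defb4 and Defb14 kept the first 3 places in both groups, and their ranges did not overlap. Defb3 and Defb1 changed places, with Defb1 at 30.3 ± 4.56 CPM per kilobase in Plg KO and 20.3 ± 3.05 in Plg WT, and they did not differ beyond their spread in either group. Reg3g (21.3 ± 24.99 in Plg KO and 1.61 ± 1.67 in Plg WT), Saa3 (11.5 ± 12.9 in Plg KO and 0.483 ± 0.345 in Plg WT) and Wfdc21 (2.52 ± 2.02 in Plg KO and 0.369 ± 0.204 in Plg WT) followed in that order in the means of both groups, with overlapping ranges, so these 3 cannot be ranked. In Plg KO the ranges of Reg3g and Saa3 also overlapped those of Defb3 and Defb1, and the range of Saa1 overlapped those of Reg3g and Saa2. Saa1 overlapped Saa3 and Wfdc21 in both groups. Saa1 and Saa2 had the lowest means. Dividing by all merged exons, retained introns included, placed Wfdc21 before Saa3 in both groups.

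Plg KO 2 was the highest Plg KO library for 6 of the 8 tested members, and Plg KO 3 the lowest for 6 of 8. The exceptions were Slpi, highest in Plg KO 1, Reg3g, highest in Plg KO 3 and lowest in Plg KO 1, and Wfdc21, lowest in Plg KO 1. The order of the Plg KO libraries was not counted over all tested genes, so it is not shown to be particular to the members. The 20 listed neutrophil markers summed to 322.0, 609.0 and 235.6 CPM in Plg KO 1, 2 and 3, against 58.3, 82.3 and 93.5 CPM in Plg WT 1, 2 and 3. S100a8 and S100a9 made up 205.2, 466.4 and 122.0 CPM of it in Plg KO, against 25.5, 49.4 and 63.1 CPM in Plg WT. Plg KO 2 was the highest Plg KO library for 15 of the 20 markers, but Plg KO 1 was the lowest for 13 and Plg KO 3 for 7, so the lower end of the order differed from that of most members. Of the 16 tested neutrophil markers, 16 had a positive log2 difference and 2 were called higher, beside 49.2% and 0.191% of all tested genes. Several passed the filter through Plg KO, which favours a positive sign. Among them were Retnlg (5, 9 and 8 counts in Plg WT 1, 2 and 3) and Clec4e (6, 3 and 7). The granule protease genes Elane, Ctsg and Prtn3, which mark immature neutrophils, were under 1 CPM in every library, though Elane had 2, 0 and 28 counts in Plg KO. Ngp and Camp of the neutrophil list were highest in Plg KO 3. Ngp had 0, 1.17 and 4.43 CPM in Plg KO and 0.901, 0.107 and 0.288 CPM in Plg WT. Camp had 0.0540, 0.117 and 1.82 CPM in Plg KO and 0.682, 0.464 and 0.416 CPM in Plg WT. The part of neutrophils in the values of Saa3, Wfdc21 and the defensins was not tested. Macrophage markers summed to 178.4 to 269.7 CPM in Plg KO and 161.2 to 200.9 CPM in Plg WT, fat cell markers to 38.0 to 47.6 CPM in Plg KO and 59.7 to 106.6 CPM in Plg WT.

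**Figure D3:**
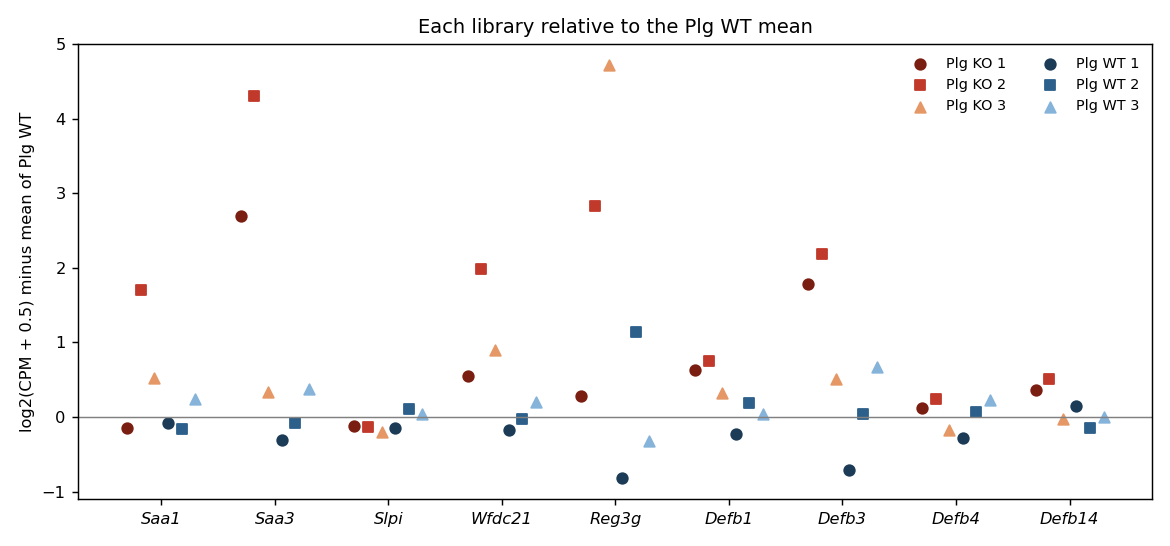
Difference of each library from the Plg WT mean on the log2(CPM + 0.5) scale for 9 genes (Saa2, nearly undetected, is left out); colours and shapes give the library. Plg KO 2 is highest for most genes, Plg KO 3 is highest for Reg3g, and all libraries lie together for Slpi.

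Signals known to induce these genes were examined through a list of 12 cytokine genes, of which 9 were tested. The list also holds Il1rn, whose product is an antagonist and not an inducing signal. The interleukin-1 beta gene Il1b and the interleukin-6 family cytokine gene Osm rose in Plg KO, the 2 called genes of this list (0 lower). Over all tested genes, 0.191% were called higher and 0.0451% lower. Il1b averaged 12.4 ± 3.45 CPM in Plg KO and 1.72 ± 0.615 CPM in Plg WT (edgeR, adjusted p = 0.0252). Osm averaged 2.31 ± 0.919 CPM in Plg KO and 0.281 ± 0.0359 CPM in Plg WT (edgeR, adjusted p = 0.0446). Without Plg WT 2, Plg WT 3, Plg KO 2 or Plg KO 3 the same fit called 0 genes of the 6 pathway lists, and without Plg WT 1 or Plg KO 1 it called 4 and 3. All 9 tested genes of this list, Il1rn included, had a positive log2 difference, as did 49.2% of all tested genes. The list median was 1.37, beside -0.00 over all tested genes. Il6 (3, 0 and 7 counts in Plg WT 1, 2 and 3) and Osm (10, 7 and 10) could pass the filter through Plg KO, which favours a positive sign. The list was chosen with earlier results of these data known, so its median is descriptive.

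Il6, the main inducer of hepatic serum amyloid A, had 0.567, 1.51 and 0.812 CPM in Plg KO and 0.0819, 0.00 and 0.224 CPM in Plg WT (log2 difference 3.15 ± 0.80, edgeR adjusted p = 0.234). Il1a had 10.7 ± 3.47 CPM in Plg KO and 3.82 ± 0.492 in Plg WT, and Il1rn, the interleukin-1 receptor antagonist, had 378.7 ± 68.1 CPM in Plg KO and 195.5 ± 3.15 in Plg WT. Both had groups that did not overlap, with edgeR adjusted p-values of 0.0954 and 0.0582. Of the 9 tested genes of this list, 7 lay wholly above Plg WT, beside 7.51% of all tested genes. Il22 and Il17a, lymphocyte cytokines that induce Reg3g and beta-defensins, had 0 counts in all 6 libraries, which at this depth allows up to 0.115 CPM in a library. Il17f, the close relative of Il17a, was not tested but had 9, 30 and 1 counts in Plg KO and 3, 1 and 2 counts in Plg WT, highest in Plg KO 2 with overlapping groups.

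Cytokine receptors and the factors that act below them showed smaller differences. Of 17 tested, 0 were called, beside 0.191% of all tested genes called higher and 0.0451% lower. Before adjustment, p was under 0.05 for 3 higher and 1 lower, beside 4.97% and 4.27% of all tested genes. The median log2 difference was 0.07. Socs3, a feedback inhibitor induced by STAT3, had 22.7 ± 7.51 CPM in Plg KO and 11.3 ± 2.87 CPM in Plg WT. Il1r1, the signalling receptor of interleukin-1, had 21.2 ± 4.01 CPM in Plg KO and 12.3 ± 0.668 in Plg WT, and Nfkbiz, the NF-kappaB cofactor needed for many antimicrobial genes, had 17.6 ± 5.43 CPM in Plg KO and 11.9 ± 1.45 in Plg WT. For these 3 genes the groups did not overlap. In the list, 5 of 17 genes lay wholly above Plg WT and 1 wholly below, beside 7.51% and 7.18% of all tested genes. The 1 below was Cebpb, which encodes a C/EBP factor, with 1.84, 1.71 and 1.65 CPM in Plg KO and 1.97, 2.53 and 1.95 CPM in Plg WT. The interleukin-6 receptor gene Il6ra had a log2 difference of -0.37 ± 0.14.

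Other acute-phase genes mostly showed small differences. Of 25 listed, 13 were tested, 0 were called or below an unadjusted p of 0.05, 7 had a positive difference, and the median was 0.06. The nearest to a call was Steap4, a metalloreductase, at 22.6 ± 9.57 CPM in Plg KO and 14.3 ± 1.90 CPM in Plg WT. The orosomucoid gene Orm1 had 1.81, 10.3 and 3.17 CPM in Plg KO and 0.846, 2.86 and 0.545 CPM in Plg WT, highest in Plg KO 2 with overlapping groups. Lcn2, the siderophore-binding lipocalin, had 6.64, 7.85 and 2.02 CPM in Plg KO and 2.21, 2.36 and 3.65 CPM in Plg WT, so that Plg KO 1 and 2 stood above Plg WT and Plg KO 3 below it, the same order within each group as for Saa3. Lcn2 is also in the neutrophil list. Serpina3n had a log2 difference of -0.61 ± 0.31.

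Among 39 other epithelial antimicrobial genes, 27 were tested and 22 had a positive log2 difference (median 0.37), beside 49.2% of all tested genes. Of the 27, 0 were called, beside 0.191% of all tested genes called higher and 0.0451% lower. Several of these were lowest in Plg WT 2 and 3, the libraries with the least gland transcript: Ltf had 188.0, 279.4 and 295.9 CPM in Plg KO and 256.2, 41.2 and 62.0 CPM in Plg WT, and Dmbt1 56.0, 86.4 and 133.0 CPM in Plg KO and 125.2, 6.75 and 32.4 CPM in Plg WT. Bpifa2, Wfdc2 and Pglyrp1 were likewise lowest there. The part of gland tissue in this count was not tested. Calprotectin genes S100a8 and S100a9, whose product withholds metals from microbes, and Pglyrp4, which binds peptidoglycan, were the 3 at an unadjusted p under 0.05. All 3 were higher, beside 4.97% of all tested genes higher and 4.27% lower. S100a8 had 95.5, 229.3 and 49.8 CPM in Plg KO and 9.72, 22.2 and 28.9 CPM in Plg WT, and S100a9 had 109.7, 237.1 and 72.2 CPM in Plg KO and 15.8, 27.3 and 34.2 CPM in Plg WT. In both groups of libraries S100a8 had the order of Saa3. Both genes are also in the neutrophil list. Pglyrp4 had 46.4, 57.8 and 47.2 CPM in Plg KO and 28.8, 24.99 and 29.1 CPM in Plg WT (log2 difference 0.87 ± 0.12, edgeR adjusted p = 0.0504). The whey-acidic-protein gene Wfdc18 had 17.2, 39.0 and 83.9 CPM in Plg KO and 29.5, 5.28 and 6.50 CPM in Plg WT. Its lowest libraries were also Plg WT 2 and 3.

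The proteases that Slpi inhibits were scarce, whereas receptors for these ligands differed widely in level. Cd36 averaged 86.7 CPM in Plg KO and 87.0 CPM in Plg WT, P2rx7 19.1 and 20.1, and Scarb1 18.4 and 18.8, while Fpr3 had 0 counts. Of 11 tested receptor genes, 0 were called, beside 0.191% of all tested genes called higher and 0.0451% lower. Before adjustment, p was under 0.05 for 2 higher and 1 lower, beside 4.97% and 4.27% of all tested genes. The median log2 difference was 0.00. Fpr1, a formyl peptide receptor of neutrophils, had 1.12 ± 0.891 CPM in Plg KO and 0.166 ± 0.221 CPM in Plg WT, and its relative Fpr2, a receptor of serum amyloid A, had 26 counts in Plg KO and 1 in Plg WT. Tlr4 had 4.59 ± 0.265 CPM in Plg KO and 3.04 ± 0.363 CPM in Plg WT, and Tlr2 had 3.49 ± 0.528 CPM in Plg KO and 2.66 ± 0.305 in Plg WT. Ccr6, the chemokine receptor that beta-defensins engage, had 0.0270, 0.544 and 0.0560 CPM in Plg KO and 1.45, 0.750 and 0.705 CPM in Plg WT, with all Plg KO libraries below Plg WT (log2 difference -2.35 ± 0.89, edgeR adjusted p = 0.463). Ccr6 also marks B cells, whose 8 markers summed to 6.80 to 56.3 CPM in Plg KO and 42.8 to 139.1 CPM in Plg WT, and the part of B cells in the Ccr6 values was not tested. Of the proteases and partners of Slpi, 4 were tested and 0 called: Plscr1 had a log2 difference of 0.71 ± 0.40, Plscr4 of -0.35 ± 0.20, Anxa2 of 0.14 ± 0.11 and Grn, which Slpi protects from elastase, of 0.10 ± 0.09.

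**Figure D4:**
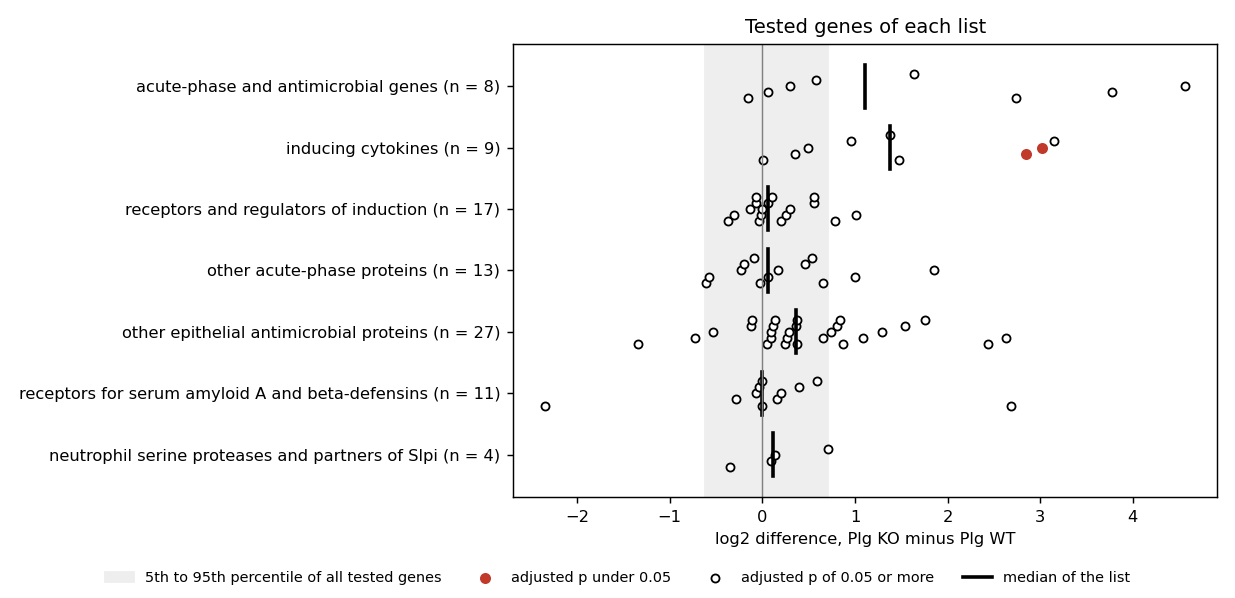
Log2 differences, Plg KO minus Plg WT, of the tested genes of each list (1 point per gene, vertical bars the list medians, shading the 5th to 95th percentile of all tested genes). Filled points are the 2 genes at an adjusted p under 0.05, Il1b and Osm, both in the cytokine list.

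Genes with the most similar profiles were sought for each tested member among 13186 other named genes above a minimum mean of 1 CPM, by Pearson correlation of log2(CPM + 0.5) over the 6 libraries. With so many genes and 6 libraries that share group and composition, high values are common, and the correlations describe these libraries only. The closest were Pomt1, Slc39a10 and Tyw5 for Saa3 (0.991 to 0.987), Dusp8, Kdm6b and Dbnl for Slpi (0.9902 to 0.987), Prr13, Eif2s2 and Gk for Wfdc21 (0.987 to 0.985) and Alkbh5, Lims1 and Fgd6 for Reg3g (0.983 to 0.966). For the defensins they were Il36g (as Il1f9), Ticrr and Capn2 for Defb1 (0.997 to 0.991), Endod1 and Rpl31-ps8 for Defb3 (0.993 to 0.991), Clec2g, Sptlc1 and Sult2b1 for Defb4 (0.996 to 0.989) and Snrpert, Tpp1 and Fancb for Defb14 (0.993 to 0.975). Il36g encodes an interleukin-1 family cytokine of keratinocytes, and had 49.5, 53.6 and 42.5 CPM in Plg KO and 29.3, 38.3 and 35.9 CPM in Plg WT. Like Defb1, it was higher in every Plg KO library than in any Plg WT library, with an edgeR adjusted p of 0.276.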

How the data were processed

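RNA sequencing of 6 gingiva libraries was analysed from a pair of deposited tables. Raw counts per gene were used as the authors deposited them, 48709 genes with 22 entries that name no gene (at most 3.55e-05% of a library) left out. The deposited CPM values, TMM-scaled by the authors, cover 21948 genes and supplied gene symbols. Saa2 and other missing symbols came from GENCODE M21, and Il36a, Il36g and Scpppq1 were matched through older symbols. Rescaling the deposited CPM to whole reads succeeded for 100% of its values (tolerance 0.01). The recovered reads equalled the raw counts, so an added test on them repeated the main test and called the same number, 42 genes. Nextera XT libraries were read as 37 bp pairs, per the labels' protocols. That kit does not mark strand. STAR 2.5.2a is named in the submitters' processing notes with builds GRCm38.p3 and mm10; DESeq2, edgeR and limma are also named there, without roles, and the sources used here name no counting tool.

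edgeR 4.0.16 (R 4.3.3) fitted genotype alone with TMM, filterByExpr (17757 genes) and the quasi-likelihood F test, with Benjamini-Hochberg adjustment over all genes. SE is the log2 difference over the square root of F. Groups come from the sample titles. Any pair of libraries differed beyond sampling noise (chi-square per degree of freedom 21.4 to 111.4). Positions are GENCODE M21 on GRCm38. Alternatives were DESeq2 1.42.0, limma 3.58.1 (voom, and trend on log2 of CPM + 0.5), RLE and upper-quartile factors, other filters, a replicate block, a sex term, thinning, removal of the 10 most abundant genes, an adjusted p under 0.10 and leaving out each library. Scripts were tested on simulated data. The 10 members and all lists were chosen with earlier results of these data known. Genes named are the members, called genes and the 4 smallest p-values of each of 6 pathway lists, and the 3 most similar genes per member, of which 1 is not reported here. Others, such as Il6, Il22, Il17a, Il17f, Cebpb, Ltf, Dmbt1, Bpifa2, Wfdc2, Pglyrp1, Ahsg, Trf, Fpr2, Fpr3, Cd36, P2rx7, Scarb1, Retnlg, Clec4e, Ngp, Camp, Saa4, the Reg3 relatives and the granule proteases, were named after their values were seen. Protein sequences were not used here. Per-length levels use the main transcript, an alternative added after seeing the data, since merged exons include retained introns.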

Additional observations from a re-analysis of the deposited data

How the results depend on the processing

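The count of members called was 0 in every alternative except DESeq2, which called 3. Pathway genes called numbered 2 in the main test, 11 with DESeq2, 1 with limma-voom, 1 with limma-trend, 7 with no filter, 1 after thinning, 5 at an adjusted p under 0.10, 0 with the replicate block, and 0 to 4 when 1 library was left out. All genes called numbered 42 in the main test, 402 with DESeq2 (68.2% of them higher, against 81.0%), 162 with no filter, 65 with the sex term, 121 at an adjusted p under 0.10, 2 with the replicate block, and 2 to 219 when 1 library was left out (219 without Plg WT 1, 2 without Plg WT 2, and 3 without Plg WT 3, Plg KO 2 or Plg KO 3). Which feature of each alternative moved these counts was not tested. Libraries that share a replicate number did not deviate together (Pearson r of -0.32, -0.02 and -0.31 over 14691 genes), so the numbers were not taken as pairs and the block only shows how the counts move. Of 150 readings of single members under the alternatives, 145 kept direction and side of the threshold and 3 passed it (DESeq2). The other 2 turned round, both for Defb4, at -0.073 without Plg WT 1 and -0.03 without Plg KO 2. These readings include the main fit read at an adjusted p under 0.10 and the fit on recovered counts, which equal the raw counts. Neither could change direction, so they add nothing to the agreement. Leaving out 1 library moved the Defb4 log2 difference between -0.073 and 0.18. Log2 differences ranged from 2.44 to 5.31 for Saa3, 2.17 to 5.05 for Reg3g and 1.14 to 3.25 for Wfdc21, the lowest for Saa3 and Wfdc21 from limma-trend, whose pseudocount shrinks low genes. Saa1 and Saa2 counted together still did not pass the filter, and the stricter filter removed Saa3 and Wfdc21, so these gave no value. Depth limits Saa1, Saa2 and Wfdc21 most, at 14, 0 and 15 counts over Plg WT.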
